A study of Mus musculus with 96 samples.

Results

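The regions described here were active enhancers of embryonic stem (ES) cells whose chromatin was not fully accessible before differentiation began. They were taken from the deposited table of 42403 GATA6 binding regions of the mouse genome (build mm10, GRCm38) as the rows with the active enhancer class and the moderate or closed accessibility class before Dox. This gave 3445 regions, of which 3312 were of the moderate class and 133 of the closed class, beside 1285 active enhancers of the accessible class and 6943 primed enhancers of the moderate or closed classes. Both classes were taken as deposited and did not use the factor signals below. The marks and accessibility profiles behind them were outside the libraries read here, so the classes themselves were not checked.

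GATA6, SOX17, OCT4, SOX2 and ESRRB were profiled by chromatin immunoprecipitation and sequencing (ChIP-seq), with input DNA, in KH2 ES cells (C57BL/6 x 129/Sv) that carry a Gata6 cassette inducible with doxycycline (Dox, 1 µg/mL). Time points were before Dox and 8 h, 16 h, day 1, day 2 and day 4 of Dox. The X10 line of extraembryonic endoderm (XEN) cells, from CD1 mice, gave GATA6, SOX17, OCT4, SOX2 and input, and Oct4 or control siRNA given together with Dox gave GATA6 and SOX17 at day 2. All the induced samples thus carry the same cassette and receive GATA6 from a transgene in 1 ES line, and the samples before Dox carry it uninduced. The table holds 45 conditions, each as 1 column of reads scaled to library size (RPM) over the whole region that pools 1 to 3 libraries, so no difference below has a replicate check or a p-value. A change is the difference of log2(RPM + pseudocount), with a pseudocount between 0.158 and 0.195 RPM by assay, and a region was called higher or lower from a 2-fold change. The values of 4 columns were whole multiples of 1 read, which gave depths, in M reads, the unit RPM is scaled to, of 6.12 M for GATA6 before Dox, 7.50 M for OCT4 in XEN cells, 9.10 M for ESRRB at 8 h and 20.0 M for SOX17 at 16 h. The depth of the other columns is unknown. The step of 1 read was 0.163 RPM for GATA6 before Dox, and 311 of the 3445 regions stood at that lowest value. No column held a value of 0, so whether the lowest value stands for 1 read or for none cannot be told. The fold changes against GATA6 before Dox thus rest on few reads. In these bulk samples, binding in fewer cells and weaker binding per cell cannot be told apart.

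ES cells keep their identity through a network of pluripotency transcription factors (PTFs), in which OCT4 and SOX2 bind a shared composite DNA element and the nuclear receptor ESRRB binds its own. GATA6 is the zinc-finger factor that directs inner cell mass and ES cells to primitive endoderm (PrE), the tissue from which XEN lines derive, and SOX17 is an HMG-box factor switched on along that path. Enhancers are distal elements that carry binding sites for such factors, and active ones are recognised by histone marks of acetylation and methylation.

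The sequences shown are the highest-scoring motifs of members at the extremes of GATA6, SOX17, OCT4 and ESRRB signal, and of members next to the pluripotency genes Bmp4 and Esrrb. Each is read from the mm10 genome on the strand of the motif, with the motif in capitals and 32 flanking bases on either side.
Prok2 member, GATA6 motif, chr6:99804555-99804631, minus strand: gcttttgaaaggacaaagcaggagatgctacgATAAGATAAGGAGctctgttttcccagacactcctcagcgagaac
Nmur2 member, GATA6 motif, chr11:55946761-55946837, minus strand: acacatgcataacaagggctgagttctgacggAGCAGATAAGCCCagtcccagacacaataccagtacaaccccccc
Nmur2 member, OCT:SOX motif, chr11:55946827-55946905, minus strand: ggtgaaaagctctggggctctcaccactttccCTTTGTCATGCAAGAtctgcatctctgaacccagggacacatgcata
Bmp4 member, GATA6 motif, chr14:46412560-46412636, plus strand: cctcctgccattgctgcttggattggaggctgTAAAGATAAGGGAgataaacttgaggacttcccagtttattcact
Esrrb member, GATA6 motif, chr12:86480743-86480819, plus strand: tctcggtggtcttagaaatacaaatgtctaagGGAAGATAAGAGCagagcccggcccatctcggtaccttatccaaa
Tbc1d9b member, GATA6 motif, chr11:50139924-50140000, minus strand: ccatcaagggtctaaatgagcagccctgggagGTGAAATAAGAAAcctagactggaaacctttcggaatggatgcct
Plcl2 member, OCT:SOX motif, chr17:50427846-50427924, plus strand: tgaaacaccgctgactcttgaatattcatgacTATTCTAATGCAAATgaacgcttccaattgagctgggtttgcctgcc
Fbxl19 member, SOX17 motif, chr7:127749191-127749263, plus strand: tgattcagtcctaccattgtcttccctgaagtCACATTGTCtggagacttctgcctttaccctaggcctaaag
Dcbld1 member, ESRRB motif, chr10:52278263-52278337, plus strand: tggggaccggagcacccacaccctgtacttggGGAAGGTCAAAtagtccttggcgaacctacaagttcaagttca
The Prok2, Nmur2, Bmp4 and Esrrb members hold the GATA core AGATAA within their best GATA6 motif, at 18, 32, 72 and 2 bases from the GATA6 summit. The best GATA6 motif of the Tbc1d9b member is of the low score class, lacks that core and lies 205 bases from the summit. The OCT:SOX motif of the Plcl2 member holds the octamer ATGCAAAT 6 bases from the GATA6 summit, and the SOX17 motif of the Fbxl19 member holds CATTGT 57 bases from it.

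Taken as a set, the members were wide and gene-proximal. Their median width was 749 bp, against 524 bp over all regions, so levels are also given per kilobase below. The nearest start of a protein-coding gene lay at a median of 10.2 kb, against 16.3 kb over all regions. Of the members, 1504 were intronic, 1525 intergenic, 336 (9.75%) within 1 kb of a start site and 80 exonic. They were nearest to 2287 genes, and 1615 of these genes had a single member. Etl4 had the most, with 15 members, followed by Enc1 and Rbpms with 11 each. Some members lay near one another: 1081 (31.4%) had another member within 12 kb, in 450 runs. This share was not computed for the other region sets, so it does not show that members cluster more than they do. A run of 7 stood over 32.9 kb of chromosome 8 at Rbpms, which encodes an RNA-binding protein. In the Rbpms run, the median GATA6 level was 3.78 RPM at 8 h and 6.97 RPM at day 4, and the median SOX17 level rose from 1.61 RPM before Dox to 8.90 RPM at day 4. Runs also went the other way: in a run of 6 members, median GATA6 went from 8.43 RPM at 8 h to 1.44 RPM at day 4, and SOX17 from 2.16 RPM before Dox to 1.18 RPM at day 4.

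The GATA6 motif separated the members from the accessible active enhancers, but hardly from the primed enhancers of the moderate or closed class. A GATA6 motif of the high or mid score class was present in 57.6% of members (95% Wilson interval 55.9 to 59.2) and in 27.2% (24.8 to 29.7) of the accessible active enhancers. It was in 60.1% of those primed enhancers and in 59.8% of all regions. These intervals cover counting error only. High or mid SOX17 motifs were alike in members and accessible active enhancers (44.1% against 42.8%), as were ESRRB motifs (34.2% against 32.3%). OCT:SOX motifs were in fewer members (27.7% against 38.6%). The words AGATAA or TGATAA, on either strand, were found in 79.8% of members, 50.8% of accessible active enhancers and 82.0% of all regions. Per kilobase, the members held 1.87 of these words, between 1.15 in the accessible active enhancers and 2.76 over all regions. The ESRRB word TCAAGGTCA was in 5.98% of members against 2.94% of all regions, the octamer ATGCAAAT in 7.31% against 5.98%, and the SOX word CATTGT in 40.2% against 39.5%. Per kilobase, the ESRRB word was still more frequent in members (0.0701 against 0.0490), while ATGCAAAT (0.0867 against 0.102) and CATTGT (0.655 against 0.875) were less frequent. A word match is a description of the sequence and not a binding site.

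In PTF binding before Dox the members lay between the accessible active enhancers and the whole set. The deposited PTF class put 1702 members (49.4%) as bound by PTFs before Dox, 423 (12.3%) as gaining PTFs after Dox ("ectopic") and 1320 (38.3%) as free of PTFs, where all regions had 16.6% gaining and 62.6% free. PTF binding before Dox was the class of 81.5% of accessible active enhancers and 20.8% of all regions. By the class of GATA6 binding over time, 1931 members (56.1%) were transient, 1132 (32.9%) early and 382 (11.1%) late. Over all regions 38.4% were transient, 28.0% early and 33.6% late, and of the accessible active enhancers 73.5% were transient. SOX17 was called bound at 1609 members (46.7%), close to the 44.5% of all regions. These classes come from the same libraries as the levels below. The most frequent combination was transient GATA6 with neither SOX17 nor PTFs, with 770 members (22.4%). Next were transient GATA6 without SOX17 but with PTFs before Dox, with 702 (20.4%), and early GATA6 with both, with 639 (18.5%). These combinations were not counted over all regions, so it cannot be told whether this order is particular to the members.

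**Figure D1:**
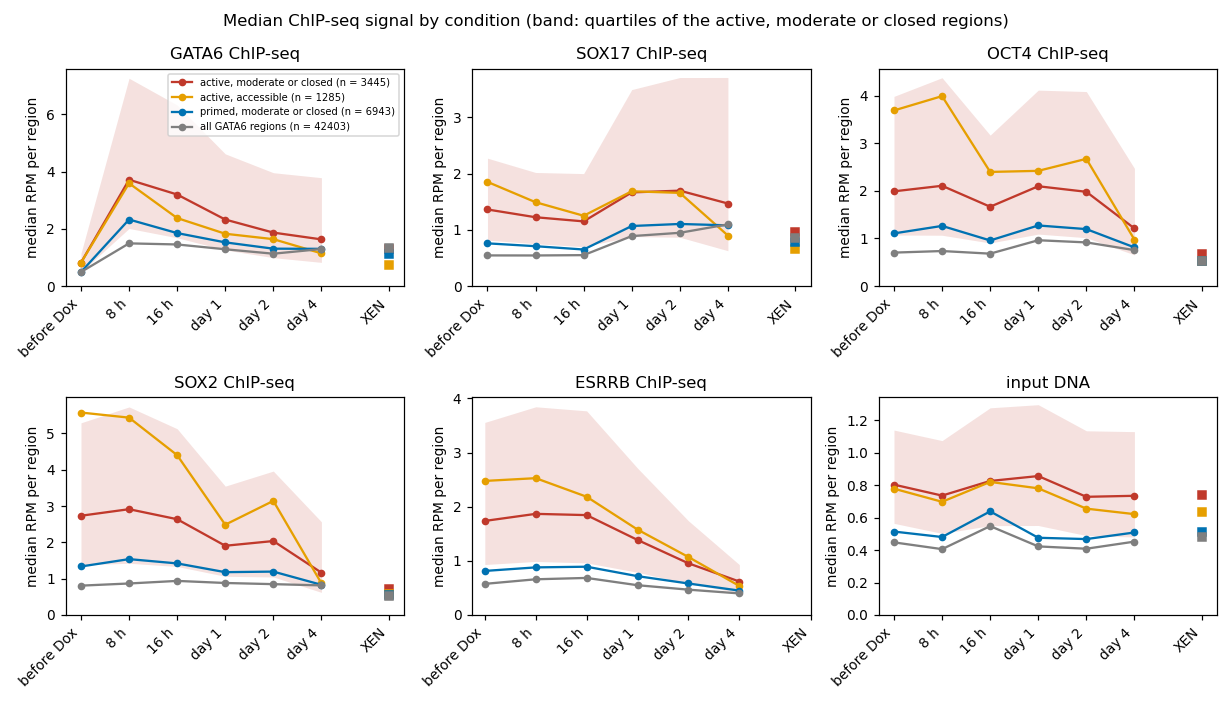
Median RPM per region (vertical axis) of GATA6, SOX17, OCT4, SOX2, ESRRB and input by condition (horizontal axis, not to time scale) for the active enhancers of the moderate or closed class and the region sets named in the legend, with the quartiles of the former as a band. In the 3445 regions, GATA6 was highest at 8 h (3.71 RPM) and ESRRB fell to 0.617 RPM at day 4.

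GATA6 reached these enhancers at once and then declined. The median level of the members was 0.817 RPM before Dox, then 3.71 (8 h), 3.20 (16 h), 2.32 (day 1), 1.87 (day 2), 1.63 (day 4) and 1.30 RPM (XEN cells). At 8 h, 2948 members (85.6%) were at least 2-fold above the level before Dox, where 60.4% of all regions were. All regions are GATA6 peaks, so a rise at some time is built into the set. The members that fell thus outnumbered those that rose once 8 h had passed. From 8 h to day 4, 1845 members (53.6%) fell by at least 2-fold and 341 (9.90%) rose, while over all regions 34.8% were lower and 30.9% higher. The median change was -1.14 in members, -1.61 in the accessible active enhancers and -0.02 over all regions. The fall was spread over the course, with median steps of -0.16 from 8 h to 16 h, -0.42 from 16 h to day 1, -0.23 from day 1 to day 2 and -0.16 from day 2 to day 4. The highest level of the course was at 8 h in 1829 members (53.1%) and at day 4 in 596 (17.3%). Over all regions these shares were 32.8% and 37.2%. In the primed enhancers of the moderate or closed class they were 48.6% and 28.3%, so a highest level at 8 h was not particular to the members. From day 4 to XEN cells, 448 members (13.0%) were lower and 167 (4.85%) higher, against 11.7% lower and 14.4% higher over all regions. Per kilobase, the members stood above all regions at 8 h (5.11 against 3.27) but below them at day 4 (2.40 against 2.69) and in XEN cells (1.77 against 2.78). In RPM per region, which does not correct for the members' width, they remained above all regions at day 4. Per kilobase, the level at 8 h did not order the members at day 4, with a Spearman correlation over members of -0.07, against -0.31 over all regions. In RPM per region, without correction for width, the members' correlation between both times was 0.44. Per kilobase, day 4 and XEN cells correlated at 0.83 over members. Input fell little, by a median of 0.09 from before Dox to day 4 on the log2 scale, but its change correlated with that of GATA6 from 8 h to day 4 at 0.54, and its part in the decline was not tested.

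**Figure D2:**
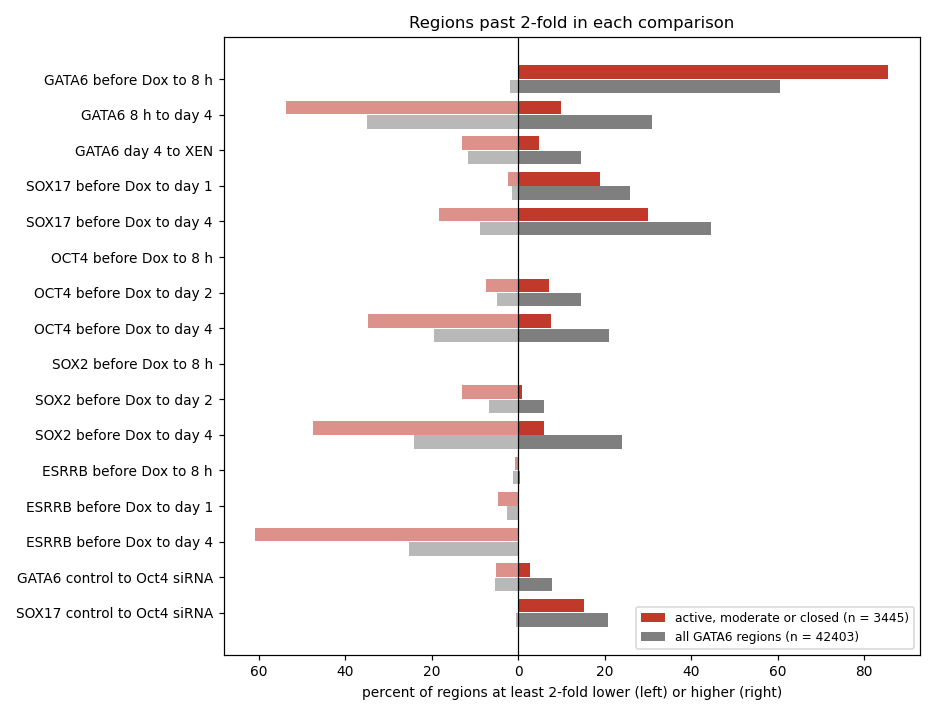
Percent of regions at least 2-fold higher (to the right) or lower (to the left, paler) in each comparison, by region set. Members lost GATA6 between 8 h and day 4 in 53.6% of cases and ESRRB by day 4 in 60.8%.

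The member with the most GATA6 per kilobase at 8 h was chr6:99804362-99805302, an intergenic region 78.4 kb from Prok2, the gene of a secreted ligand. Its GATA6 level was 0.327 RPM before Dox, then 29.3 (8 h), 14.6 (16 h), 5.89 (day 1), 6.69 (day 2), 4.73 (day 4) and 2.54 RPM (XEN cells). The level was highest at the first time after Dox, which the choice by 8 h level favours, and was lower by day 1. The largest fall from 8 h to day 4 was at chr11:55946271-55947462, 94.1 kb from Nmur2, which encodes a neuropeptide receptor. GATA6 there was 1.63 RPM before Dox, then 24.0 (8 h), 11.5 (16 h), 3.23 (day 1), 2.85 (day 2), 0.912 (day 4) and 0.566 RPM (XEN cells), a log2 change of -4.45. OCT4 at this region was 13.0 RPM before Dox, then 18.4 (8 h), 11.9 (16 h), 5.51 (day 1), 6.75 (day 2), 0.770 (day 4) and 0.400 RPM (XEN cells). ESRRB was 11.7 RPM before Dox, then 16.1 (8 h), 12.1 (16 h), 6.64 (day 1), 3.71 (day 2) and 1.04 RPM (day 4). The factors present before Dox were thus near their lowest values at day 4, as GATA6 was after Dox, while the 8 h values of all 3 stood at the top of their courses.

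Members that gained GATA6 late were the minority. The largest rise from 8 h to day 4 was at chr11:50139912-50140441, in an intron of Tbc1d9b, which encodes a GTPase-activating protein. GATA6 was 0.817 RPM before Dox, then 0.463 (8 h), 0.932 (16 h), 1.61 (day 1), 2.87 (day 2), 5.83 (day 4) and 5.88 RPM (XEN cells). SOX17 there was 0.368 RPM before Dox, then 0.253 (8 h), 0.650 (16 h), 2.50 (day 1), 4.61 (day 2), 10.8 (day 4) and 5.90 RPM (XEN cells). Both were highest at day 4 or in XEN cells, and OCT4 ranged from 0.193 to 1.70 RPM over the conditions, a range wider than 2-fold. The most GATA6 per kilobase at day 4 was at chr17:24220642-24221878, in the promoter of Tedc2, the gene of a centriole protein. It differed from both regions above in keeping a high level from 8 h on, with 1.47 RPM before Dox, then 24.6 (8 h), 29.8 (16 h), 24.2 (day 1), 23.1 (day 2), 29.8 (day 4) and 34.7 RPM (XEN cells).

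SOX17 changed in both directions. Its median level in members was 1.36 RPM before Dox, then 1.22 (8 h), 1.15 (16 h), 1.67 (day 1), 1.70 (day 2), 1.47 (day 4) and 0.963 RPM (XEN cells). At day 1, 652 members (18.9%) were at least 2-fold above the level before Dox, against 25.8% of all regions. At day 4, 1033 (30.0%) were higher and 629 (18.3%) lower, while over all regions 44.5% were higher and 8.72% lower. The median of all regions itself rose by 0.49 at day 1 and 0.79 at day 4. Taken relative to that shift, 14.9% of members were higher and 40.4% lower at day 4, and 7.40% higher at day 1, so the direction of the members' median depends on this scaling. The signal of the SOX17 antibody before Dox, when SOX17 is not yet induced, was above input (1.36 against 0.804 RPM). It correlated over members, per kilobase, with SOX2 before Dox at 0.82, with OCT4 at 0.69 and with input at 0.08. The part of this earlier signal in the members lower at day 4 was not tested. At day 4, SOX17 and GATA6 levels correlated at 0.92 over members.

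Among the members with most SOX17 per kilobase at day 4, chr11:86575592-86576169, an intergenic region 11.0 kb from the autophagy gene Vmp1, was first. SOX17 there was 1.02 RPM before Dox, then 0.797 (8 h), 0.950 (16 h), 3.47 (day 1), 5.33 (day 2), 21.3 (day 4) and 14.3 RPM (XEN cells). The promoter region chr7:127748783-127749419 of Fbxl19, whose product binds CpG islands, came next. SOX17 there was 0.731 RPM before Dox, then 0.642 (8 h), 1.00 (16 h), 2.31 (day 1), 3.39 (day 2), 22.5 (day 4) and 23.0 RPM (XEN cells). GATA6 at the same promoter was 0.490 RPM before Dox, then 2.05 (8 h), 1.79 (16 h), 1.59 (day 1), 2.98 (day 2), 10.2 (day 4) and 15.7 RPM (XEN cells). In both regions the rise of SOX17 fell mainly between day 2 and day 4. The SOX17 motif went with the SOX17 call: 64.7% of members with a high-scoring motif were called SOX17 bound, 58.5% with a mid, 44.6% with a low and 25.9% with no motif. Over all regions these shares were close, from 62.4% to 25.8%.

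OCT4 moved both ways to day 2 and was lower at day 4. Its median level was 1.99 RPM before Dox, then 2.11 (8 h), 1.67 (16 h), 2.10 (day 1), 1.98 (day 2), 1.21 (day 4) and 0.667 RPM (XEN cells). From before Dox to 8 h the median change was 0.09. The level thus moved little as GATA6 arrived, and its lowest value of the Dox course was at day 4. At day 2, 248 members (7.20%) were higher and 259 (7.52%) lower, against 14.6% and 4.86% of all regions. Taken relative to the median rise of all regions (0.23), 3.51% of members were higher and 13.1% lower at day 2. At day 4, 1193 members (34.6%) were lower and 262 (7.61%) higher, against 19.4% and 21.0% of all regions. Accessible active enhancers moved further, with 67.2% lower and a median change of -1.64, where the members' was -0.49.

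SOX2, the partner of OCT4 on the composite element, fell in more members than OCT4 did at day 4. Its median level was 2.73 RPM before Dox, then 2.91 (8 h), 2.64 (16 h), 1.91 (day 1), 2.04 (day 2), 1.17 (day 4) and 0.704 RPM (XEN cells). The median change to 8 h was 0.07, and the steps after it had medians of -0.05 to 16 h, -0.43 to day 1, 0.08 to day 2 and -0.55 to day 4. OCT4 had steps of -0.29, 0.33, -0.06 and -0.55 over the same times. At day 2, 450 members (13.1%) were lower, against 6.70% of all regions, and at day 4, 1635 (47.5%) were lower and 209 (6.07%) higher, against 24.1% and 24.0%. Changes of OCT4 and SOX2 to day 4 correlated at 0.92 over members.

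ESRRB was at least 2-fold lower at day 4 in more members than OCT4 or SOX2 were. Its median level was 1.74 RPM before Dox, then 1.87 (8 h), 1.84 (16 h), 1.39 (day 1), 0.954 (day 2) and 0.617 (day 4), when input stood at 0.735 RPM. The median change was 0.09 to 8 h, and from day 2 to day 4 the level passed below that of input. At day 1, 161 members (4.67%) were lower, against 2.71% of all regions. At day 4, 2094 (60.8%) were lower, against 25.2% of all regions, and 0 were higher. All regions shifted by a median of -0.40 at day 4, and 43.9% of members were lower relative to that shift, fewer than the 50.6% for SOX2 on the same scaling. OCT4, SOX2 and ESRRB were all at least 2-fold lower at day 4 in 980 members (28.4%), against 62.0% of accessible active enhancers and 11.9% of all regions. GATA6 was also lower from 8 h to day 4 in 939 of these 980, much as over all regions, where it was in 4834 of 5029. A fall of OCT4 together with a rise of SOX17 at day 4 was seen in 6 members (0.174%), near the 0.156% of all regions.

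The courses that follow are of the members at the top of OCT4 and ESRRB signal and of the largest fall of OCT4 to day 2. The most OCT4 per kilobase before Dox was at chr17:50427625-50428463, 81.4 kb from Plcl2, which encodes a phospholipase-C-like protein, and whose OCT:SOX motif is printed above. OCT4 there was 18.1 RPM before Dox, then 21.3 (8 h), 20.0 (16 h), 15.8 (day 1), 14.4 (day 2), 4.27 (day 4) and 0.267 RPM (XEN cells). SOX2 was 14.0 RPM before Dox, then 11.4 (8 h), 19.1 (16 h), 7.50 (day 1), 8.74 (day 2), 0.825 (day 4) and 0.354 RPM (XEN cells). SOX2 was thus below 1 RPM by day 4 while OCT4 was not. The most ESRRB per kilobase was at chr10:52278005-52278660, in an intron of Dcbld1, which encodes a membrane protein. ESRRB there was 12.8 RPM before Dox, then 9.01 (8 h), 15.4 (16 h), 9.02 (day 1), 8.11 (day 2) and 0.866 RPM (day 4). It held a high level to day 2. The largest fall of OCT4 to day 2 was at chr11:34315122-34315918, in the promoter of Fam196b, with 7.04 RPM before Dox, then 9.61 (8 h), 1.74 (16 h), 1.71 (day 1), 1.28 (day 2), 0.477 (day 4) and 0.133 RPM (XEN cells). Its fall lay between 8 h and 16 h.

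Gains of OCT4 at day 2 were fewer relative to losses than over all regions, and their balance changed with the scaling, as given above, and with input subtracted (21.0% higher and 14.6% lower). At chr1:135260016-135261353, 2.12 kb from Elf3, the gene of an epithelial ETS factor, OCT4 was 5.48 RPM before Dox, then 4.32 (8 h), 6.68 (16 h), 19.8 (day 1), 25.6 (day 2), 25.01 (day 4) and 1.47 RPM (XEN cells). SOX17 there was 4.05 RPM before Dox, then 3.98 (8 h), 6.00 (16 h), 22.5 (day 1), 32.8 (day 2), 15.8 (day 4) and 1.63 RPM (XEN cells). GATA6 was 1.96 RPM before Dox, then 9.42 (8 h), 13.7 (16 h), 18.2 (day 1), 21.7 (day 2), 16.2 (day 4) and 3.45 RPM (XEN cells). All 3 were highest at day 2 and far lower in XEN cells. The region chr7:28665172-28665877, 27.3 kb from Fbxo27, had a course of the same form at lower levels, with OCT4 at 2.05 RPM before Dox, then 1.26 (8 h), 2.75 (16 h), 7.98 (day 1), 10.2 (day 2), 7.15 (day 4) and 0.400 RPM (XEN cells).

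GATA6 at 8 h was highest where PTFs were bound before Dox, and at day 4 it was highest in the members that gained PTFs. Median GATA6 in members bound by PTFs before Dox was 6.35 RPM at 8 h and 1.95 RPM at day 4. In members that gained PTFs it was 3.07 and 4.13 RPM, and in those free of PTFs it was 2.21 and 1.13 RPM. The change from 8 h to day 4 had a median of -1.55, 0.36 and -0.96 in these classes, with 67.5%, 13.5% and 48.5% of regions lower. Per kilobase, the levels at 8 h were 6.42, 3.97 and 4.28, so gaining and PTF-free members were close at 8 h, but at day 4 they were 2.06, 5.24 and 2.16. SOX17 at day 4 was 1.84, 4.88 and 1.82 RPM per kilobase. Input changed by a median of -0.16, 0.13 and -0.07 from before Dox to day 4, in the same order, and its part in these differences was not tested. The gaining members with no GATA6 motif, 43 in number, still had 4.002 RPM per kilobase of GATA6 at day 4. The pattern was not particular to the members, since primed enhancers of the moderate or closed class showed it too. In those with a high or mid GATA6 motif, GATA6 per kilobase by PTF class was 6.80, 3.82 and 3.65 at 8 h. At day 4 it was 1.49, 5.30 and 2.21.

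**Figure D3:**
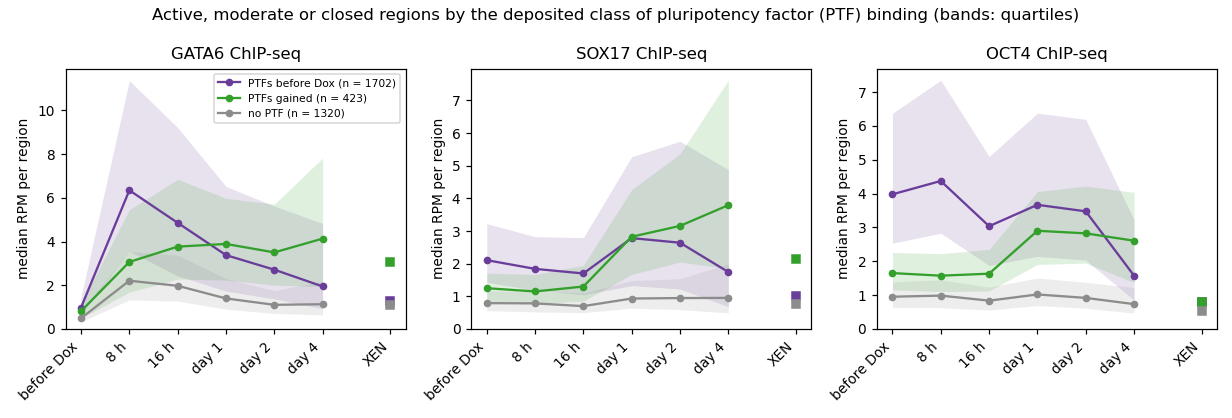
Median RPM per region by condition for the 1702 members bound by PTFs before Dox, the 423 that gained PTFs and the 1320 free of PTFs, with quartile bands. GATA6 was highest at 8 h in the first class (6.35 RPM) and highest at day 4 in the second (4.13 RPM).

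Without the peak calls, GATA6 at 8 h was also higher where OCT4 was higher before Dox. This grouping does not separate gaining from PTF-free members. Members were put in 5 equal groups of 689 by OCT4 per kilobase before Dox. From the lowest to the highest group, median GATA6 at 8 h was 3.35, 4.63, 5.40, 6.10 and 7.07 RPM per kilobase. At day 4 the order was the opposite, with 3.32, 2.79, 2.57, 2.12 and 1.57. The share of members that lost GATA6 by at least 2-fold between both times went from 28.7% to 80.4%. Grouping by SOX2 gave 3.59 to 7.26 at 8 h and 3.23 to 1.79 at day 4. Grouping by ESRRB gave a narrower range, 3.97 to 6.26 at 8 h and 2.98 to 1.86 at day 4. Input before Dox was 1.11 RPM per kilobase in the lowest OCT4 group and 1.01 in the highest, and width went from a median of 543 to 938 bp. Over members the correlation of GATA6 at 8 h with OCT4 before Dox was 0.53 per kilobase, against 0.79 over all regions.

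**Figure D4:**
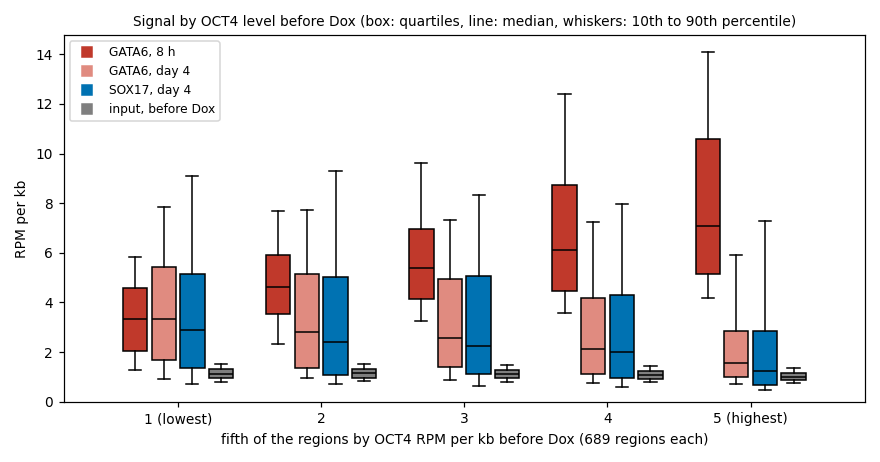
RPM per kilobase of GATA6 at 8 h and day 4, SOX17 at day 4 and input before Dox (vertical axis) in 5 equal groups of members ordered by OCT4 before Dox (horizontal axis), as boxes of the quartiles with the median as a line and whiskers from the 10th to the 90th percentile. The GATA6 medians at 8 h went up from 3.35 to 7.07 and those at day 4 went down from 3.32 to 1.57.

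Motif classes are scores of the sequence within each region, but the width of a region comes from its peak and went with the class, with medians of 991, 810.5, 642 and 456 bp from a high to an absent GATA6 motif. From a high to a mid, low and absent GATA6 motif, median GATA6 at 8 h was 6.21, 5.36, 4.71 and 4.02 RPM per kilobase, while at day 4 it was 2.56, 2.36, 2.35 and 2.21. The near-equal day 4 values pooled classes that ran in opposite ways: in the same motif order they were 2.54, 2.05, 1.84 and 1.76 in members with PTFs before Dox and 1.78, 2.06, 2.36 and 2.42 in the PTF-free. The 8 h level was highest with a high motif in each PTF class. In members with PTFs before Dox and a high GATA6 motif, GATA6 at 8 h was 8.30 RPM per kilobase, against 4.62 in those with PTFs and no motif and 4.99 in PTF-free members with a high motif. The OCT:SOX motif went with early PTF binding: 90.4% of the 366 members with a high-scoring one were bound by PTFs before Dox, against 18.6% of the 746 without one. The same order was present over all regions, with 63.8% and 6.05%. From high to none, OCT4 before Dox was 5.85, 3.45, 2.41 and 1.84 RPM per kilobase and was 1.47, 1.55, 1.74 and 1.74 at day 4. The median change of OCT4 to day 4 was -1.73 with a high OCT:SOX motif and -0.08 without one. GATA6 was at least 2-fold lower from 8 h to day 4 in 79.8% of members with a high OCT:SOX motif and 40.8% of those without. With a high ESRRB motif, ESRRB before Dox was 5.16 RPM per kilobase, against 1.73 without, and 0.84 against 0.83 at day 4. With a high SOX17 motif, SOX17 at day 4 was 3.01 RPM per kilobase, against 1.61 without.

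The 133 closed members, a small share, lay closer to the whole set in their changes than the moderate members did. Their GATA6 level per kilobase was 3.97 at 8 h, 2.65 at day 2 and 3.49 at day 4, where the moderate members had 5.16, 2.64 and 2.35. From 8 h to day 4, 34 closed members (25.6%) were higher and 41 (30.8%) lower, near the 30.9% and 34.8% of all regions, with a median change of -0.06. SOX17 was higher at day 4 in 67 (50.4%, against 44.5% of all regions) and lower in 3. OCT4 changed by a median of 0.26 to day 4, against -0.49 in all members, and 32 closed members (24.1%) gained it, against 21.0% of all regions. Before Dox their OCT4 level was 1.55 RPM per kilobase and that of moderate members 2.57.

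Oct4 siRNA was compared with control siRNA at day 2 of Dox. OCT4 itself was not profiled in these cells, so its loss was not checked here. Median GATA6 in members was 2.13 RPM with control and 1.97 RPM with Oct4 siRNA. With Oct4 siRNA, 173 members (5.02%) were at least 2-fold lower and 96 (2.79%) higher, against 5.28% and 7.77% of all regions, and the median change was -0.10. By class the median was -0.22 in members bound by PTFs before Dox, -0.02 in those that gained PTFs and 0.03 in the PTF-free. Median SOX17 was 1.14 RPM with control and 1.69 RPM with Oct4 siRNA, and 527 members (15.3%) were higher, against 20.8% of all regions. The median of all regions rose by 0.52, and relative to it 2.93% of members were higher. The control siRNA columns ordered the members as the day 2 columns did, with correlations of 0.90 for GATA6 and 0.88 for SOX17 per kilobase.

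**Figure D5:**
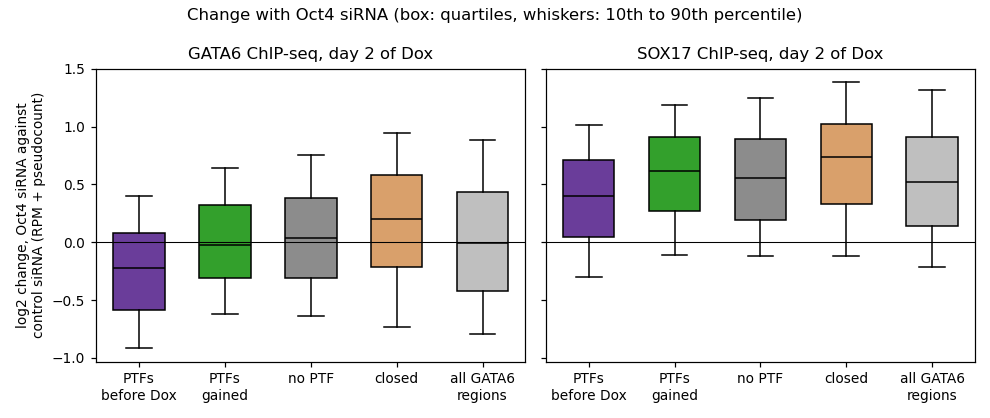
Log2 change with Oct4 siRNA against control siRNA for GATA6 and SOX17 by PTF class, in the closed members and in all regions, as boxes of the quartiles with whiskers from the 10th to the 90th percentile. GATA6 medians lay between -0.22 and 0.20 in the classes of members, and SOX17 medians between 0.40 and 0.74.

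The largest fall with Oct4 siRNA was at chr15:62958238-62959673, a gene-poor site 850 kb from Gsdmc, a pore-forming gasdermin gene. GATA6 there was 6.06 RPM with control and 1.28 RPM with Oct4 siRNA. OCT4 at the site in the induction course was 13.4 RPM before Dox, then 17.8 (8 h), 9.07 (16 h), 8.22 (day 1), 11.7 (day 2), 1.32 (day 4) and 0.933 RPM (XEN cells). A promoter region of Fkbp5, which encodes a co-chaperone of steroid receptors, chr17:28418090-28419081, came second, with GATA6 at 3.19 RPM with control and 0.607 RPM with Oct4 siRNA. The Nmur2 region, which lost GATA6 in the time course, had GATA6 at 3.22 RPM with control and 0.693 RPM with Oct4 siRNA. The largest rise was at chr11:8811657-8812189, 52.0 kb from Pkd1l1, a polycystin-family gene. GATA6 there was 0.779 RPM with control and 6.98 RPM with Oct4 siRNA, and SOX17 was 0.780 RPM with control and 7.48 RPM with Oct4 siRNA. In the induction course GATA6 there was 0.653 RPM before Dox, then 1.97 (8 h), 0.750 (16 h), 0.803 (day 1), 0.748 (day 2), 5.03 (day 4) and 13.8 RPM (XEN cells). Its level with Oct4 siRNA at day 2 was thus above its day 4 level without siRNA and below that in XEN cells.

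Of a list of 45 pluripotency genes, 27 were nearest to 64 members. GATA6 was higher at 8 h in 58 of these (90.6%, against 85.6% of all members and 60.4% of all regions) and lower from 8 h to day 4 in 40 (62.5%, against 53.6% and 34.8%). ESRRB was lower at day 4 in 43 (67.2%, against 60.8% of members and 25.2% of regions), SOX2 in 33 (51.6%, against 47.5% and 24.1%) and OCT4 in 21 (32.8%, against 34.6% and 19.4%). These shares lay near those of all members. Tbx3 had 7 of these members, Jarid2 6 and Mycn 5, while Nanog, Tfcp2l1 and Zfp42 had 0. The member named below for each gene is the one with the most GATA6 per kilobase at 8 h. That choice favours courses with a high level at 8 h and a later fall. The member chr14:46412000-46413295, 22.0 kb from Bmp4, the gene of a ligand that sustains ES self-renewal, had GATA6 at 0.327 RPM before Dox, then 28.5 (8 h), 14.2 (16 h), 6.14 (day 1), 5.06 (day 2), 1.78 (day 4) and 1.11 RPM (XEN cells). ESRRB at this region was 7.52 RPM before Dox, then 13.8 (8 h), 7.68 (16 h), 5.58 (day 1), 3.25 (day 2) and 0.506 RPM (day 4). Both were highest at 8 h and lower at every later time. An intron of Esrrb, chr12:86479960-86481406, behaved differently, with GATA6 at 1.47 RPM before Dox, then 25.9 (8 h), 25.6 (16 h), 18.8 (day 1), 22.7 (day 2), 18.9 (day 4) and 10.6 RPM (XEN cells). OCT4 in this intron was 5.25 RPM before Dox, then 6.28 (8 h), 5.74 (16 h), 10.2 (day 1), 14.4 (day 2), 7.45 (day 4) and 0.400 RPM (XEN cells). Neither factor had fallen below its level before Dox by day 4. The member chr5:119584062-119585545 lies 85.9 kb from Tbx3, the gene of a T-box factor, and GATA6 there was 2.29 RPM before Dox, then 32.6 (8 h), 24.6 (16 h), 18.6 (day 1), 18.2 (day 2), 8.53 (day 4) and 2.16 RPM (XEN cells). ESRRB there was 20.9 RPM before Dox, then 24.5 (8 h), 24.1 (16 h), 16.3 (day 1), 11.3 (day 2) and 1.499 RPM (day 4). Near Pou5f1, which encodes OCT4, chr17:35502077-35503182 lies 3.39 kb from the start site, and GATA6 there was 1.14 RPM before Dox, then 8.77 (8 h), 11.6 (16 h), 6.92 (day 1), 6.42 (day 2), 4.41 (day 4) and 3.04 RPM (XEN cells). These courses thus ran from a near-complete loss at Bmp4 to a lasting level in Esrrb.

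Of 40 PrE genes, 12 were nearest to 25 members, and Gata6, Gata4, Sox17, Sox7, Pdgfra and Foxa2 had 0, although Foxa2 had 31 and Pdgfra 18 other GATA6 regions. GATA6 was lower from 8 h to day 4 in 11 of the 25 (44%, against 53.6% of members and 34.8% of all regions) and higher in 2 (8%, against 9.90% and 30.9%). SOX17 was higher at day 4 in 10 (40%, against 30.0% of members and 44.5% of all regions). Lamc1, a laminin chain of the basement membrane, had 5. The member named for each PrE gene is again the one with the most GATA6 per kilobase at 8 h. At chr1:153376278-153378779, 44.7 kb from it, GATA6 was 1.31 RPM before Dox, then 54.9 (8 h), 39.8 (16 h), 35.3 (day 1), 37.7 (day 2), 33.6 (day 4) and 35.8 RPM (XEN cells). SOX2 there was 31.8 RPM before Dox, then 30.9 (8 h), 37.2 (16 h), 28.0 (day 1), 35.8 (day 2), 26.9 (day 4) and 7.09 RPM (XEN cells). At chr7:99352780-99355881, 1.09 kb from Serpinh1, which encodes a collagen chaperone, GATA6 was 1.80 RPM before Dox, then 21.4 (8 h), 25.4 (16 h), 19.7 (day 1), 22.5 (day 2), 44.5 (day 4) and 65.4 RPM (XEN cells). At chr5:147760550-147762398, 35.5 kb from Flt1, which encodes a VEGF receptor, SOX17 was 6.62 RPM before Dox, then 4.62 (8 h), 5.80 (16 h), 18.2 (day 1), 22.6 (day 2), 44.2 (day 4) and 42.4 RPM (XEN cells). The Lamc1 and Flt1 members thus held GATA6 or SOX17 in XEN cells, and the Serpinh1 member was highest there. Each held the highest value of the 25 for GATA6 or SOX17 in at least 1 condition, and they do not stand for the list. In XEN cells the median of the 25 was 1.64 RPM for GATA6 and 1.59 RPM for SOX17. From 8 h to day 4, GATA6 rose by any amount in 5 of the 25, with a median change of -0.98. A contrasting member, chr2:71724375-71725994 near the laminin receptor gene Itga6, had GATA6 at 2.29 RPM before Dox, then 20.5 (8 h), 21.0 (16 h), 13.8 (day 1), 9.32 (day 2), 3.62 (day 4) and 2.67 RPM (XEN cells). The nearest gene names a position only, and no expression was read here.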

How the data were processed

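Chromatin was fixed, immunoprecipitated and sequenced by the authors, who aligned reads to mm10 with Bowtie2, removed duplicates, called peaks against input with MACS2 and counted reads on each GATA6 region, using also SAMtools, bcl2fastq and cutadapt per the submitters' processing notes. The deposited values are RPM, scaled to library size by the authors. The deposited motif columns hold a score, a coordinate and a score class per region, from the authors' motif scan. Their class columns (binding over time, PTFs, SOX17, accessibility and histone state) were used as given. A column with the result of the authors' own DESeq2 test of the Oct4 siRNA cells was not used, nor were 14 per-sample columns of accessibility and histone marks, which match no library here. Input of cells given siRNA was not used here.

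The labels list 96 libraries in 47 conditions, 45 of which have a column. Libraries of a condition share a column, so differences have no error and no test was run. RPM + pseudocount (percentile 5 of the assay's values) was compared on the log2 scale and called from 2-fold, on all 42403 regions. The calling was tested on simulated counts with planted changes larger than 2-fold, at 1 RPM or more and with counting error only. It was not tested on 2-fold changes, on lower levels or with a spread between replicates. In 4 columns 100% of values were whole multiples of 1 read within 0.01. They are 1 column each of different assays, so no count test could be run on them. Genes and bases came from the GRCm38 annotation and genome, with the nearest start among 21924 protein-coding genes measured from the region's centre. Regions were named by rule: the member with most GATA6 per kb at 8 h of each listed gene, the 3 members with the highest RPM per kb of each factor, the 3 largest rises and falls with at least 2 RPM in 1 condition, and the longest runs, 1 of which is not reported here. The members and the gene lists were chosen with earlier results of these data known. Python 3.11.15, numpy 2.4.6, pandas 2.3.3, scipy 1.17.1, pysam 0.24.0 and matplotlib 3.10.9 were used.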

Additional observations from a re-analysis of the deposited data

How the results depend on the processing

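No paired analysis was possible because the replicates of a condition share a column, and leaving out replicates was not run for the same reason. Of 160 shares recomputed under the alternatives, 100 stayed within 1.5 times the reported value, and 6 of 135 medians changed sign. All 20 shares stayed within that limit with moderate members only and with members over 1 kb from a start site. Both settings keep most members (3312 of 3445 are moderate), so little change was possible. Of the 20 shares, 0 stayed within it with a pseudocount 10 times higher, 3 with closed members only and 8 with input subtracted. Relative to the median change of all regions 12 did, with a pseudocount 10 times lower 18, and in members above the median level of all regions 19. The cause of the changes below was not tested, apart from the pseudocount, which by construction shrinks or widens small changes. Counts of few reads limit the GATA6 change from before Dox to 8 h.

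With a pseudocount 10 times higher, the share of members higher was 53.9% for GATA6 at 8 h, 4.41% for GATA6 from 8 h to day 4, 1.16% from day 4 to XEN, 7.11% for SOX17 at day 1, 16.7% at day 4, 2.18% for OCT4 at day 2, 2.06% at day 4, 1.71% for SOX2 at day 4, 0.261% for GATA6 and 2.38% for SOX17 with Oct4 siRNA. The share lower was 29.7% for GATA6 from 8 h to day 4, 1.94% from day 4 to XEN, 1.68% for SOX17 at day 4, 1.68% for OCT4 at day 2, 16.2% at day 4, 2.41% for SOX2 at day 2, 24.7% at day 4, 0.261% for ESRRB at day 1, 26.7% at day 4 and 0.406% for GATA6 with Oct4 siRNA. With a pseudocount 10 times lower, ESRRB was lower in 7.11% at day 1 and GATA6 in 8.24% with Oct4 siRNA.

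With input subtracted, the share higher was 9.11% for GATA6 from day 4 to XEN, 36.0% for SOX17 at day 1, 21.0% for OCT4 at day 2, 15.4% at day 4, 10.4% for SOX2 at day 4, 7.26% for GATA6 and 38.7% for SOX17 with Oct4 siRNA. The share lower was 28.4% for GATA6 from day 4 to XEN, 14.6% for OCT4 at day 2, 24.5% for SOX2 at day 2, 29.9% for ESRRB at day 1 and 15.1% for GATA6 with Oct4 siRNA. For the control and Oct4 siRNA columns, the input subtracted was that of day 2 cells without siRNA, the same on both sides. The siRNA values are thus not corrected by an input of their own.

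Relative to the median change of all regions, the share higher was 41.0% for GATA6 at 8 h, 7.40% for SOX17 at day 1, 14.9% at day 4, 3.51% for OCT4 at day 2 and 2.93% for SOX17 with Oct4 siRNA, and the share lower was 40.4% for SOX17 at day 4, 13.1% for OCT4 at day 2 and 3.08% for ESRRB at day 1. The medians of SOX17 then changed sign, to -0.15 at day 1, -0.63 at day 4 and -0.04 with Oct4 siRNA. Among members above the median level of all regions, SOX17 was higher at day 1 in 29.5%.

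In closed members only, the share higher was 25.6% for GATA6 from 8 h to day 4, 8.27% from day 4 to XEN, 50.4% for SOX17 at day 4, 15.0% for OCT4 at day 2, 24.1% at day 4, 18.8% for SOX2 at day 4, 8.27% for GATA6 and 28.6% for SOX17 with Oct4 siRNA. The share lower was 30.8% for GATA6 from 8 h to day 4, 2.26% for SOX17 at day 4, 0.752% for OCT4 at day 2, 9.77% at day 4, 1.5% for SOX2 at day 2, 16.5% at day 4, 0.752% for ESRRB at day 1, 22.6% at day 4 and 2.26% for GATA6 with Oct4 siRNA. Medians changed sign there for OCT4 at day 4 (0.26), SOX2 at day 4 (0.17) and GATA6 with Oct4 siRNA (0.20). Per kilobase, the level of members over that of all regions at day 4 passed below 1 for GATA6 (0.892) and SOX17 (0.948).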
